A study of Mus musculus with 8 samples.

Results

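The genes described here make ketone bodies in the liver or carry them out of the cell. They are Acat1, Bdh1, Bdh2, Slc16a1 and Slc16a6, chosen by symbol from the table of normalized read counts, and all 5 were among its 21532 genes and passed the filter on low values (15989 genes tested). The livers were those of male mice of the db/db genotype, a loss of leptin receptor function that brings obesity and diabetes. From 8 weeks of age the mice received control or AF1 peptide, a peptide derived from ERα and joined to a TAT sequence for entry into cells, at 5 mg/kg body weight by retro-orbital injection, 2 times per week for 5 weeks. There were 4 control and 4 AF1 peptide-treated mice with 1 library each, and both groups carry the db/db genotype, so no lean liver was compared. The question was whether the peptide changed the RNA of these genes in the diabetic liver.

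Ketone bodies are made in liver mitochondria from the acetyl-CoA that fatty acid oxidation supplies. Acetoacetyl-CoA thiolase, encoded by Acat1, joins acetyl-CoA units on the way to acetoacetate, and D-β-hydroxybutyrate dehydrogenase (Bdh1) reduces acetoacetate to β-hydroxybutyrate. Monocarboxylate carriers of the SLC16 family then release both into the blood. The liver has little of the transferase that other tissues use to burn ketone bodies (Oxct1), and the pathway is known for its rise during fasting and its fall under insulin.

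The promoters of Slc16a1 and Bdh1, the members that passed the test below, are printed to show whether they share motif letters. RefSeq (GRCm38.p6) gave entries for 3 of the 5 members, with 2 starts for Bdh1, and the 250 bases before each start are printed 5′ to 3′ on the gene's strand, which is the plus strand for both genes. Capitals mark an E-box (CACGTG), the only match among 6 motifs searched on both strands.

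Slc16a1, chr3:104638414-104638663: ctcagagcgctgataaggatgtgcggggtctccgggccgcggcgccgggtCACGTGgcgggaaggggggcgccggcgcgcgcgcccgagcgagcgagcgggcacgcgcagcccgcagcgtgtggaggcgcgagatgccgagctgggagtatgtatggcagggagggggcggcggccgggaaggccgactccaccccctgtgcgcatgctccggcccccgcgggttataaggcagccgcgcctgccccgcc
Bdh1 (upstream start), chr16:31422047-31422296: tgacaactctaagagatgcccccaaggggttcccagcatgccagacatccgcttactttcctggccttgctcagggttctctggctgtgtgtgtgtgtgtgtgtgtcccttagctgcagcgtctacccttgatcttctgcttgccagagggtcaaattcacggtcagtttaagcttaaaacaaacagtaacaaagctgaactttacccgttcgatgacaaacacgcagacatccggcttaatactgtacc
Bdh1 (downstream start), chr16:31428503-31428752: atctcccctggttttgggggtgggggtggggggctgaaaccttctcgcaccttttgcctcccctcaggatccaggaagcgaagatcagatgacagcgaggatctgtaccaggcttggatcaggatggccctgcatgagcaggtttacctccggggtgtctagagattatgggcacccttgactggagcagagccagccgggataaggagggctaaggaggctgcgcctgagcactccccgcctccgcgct

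The E-box of Slc16a1 began 200 bases before the start, in a promoter with 76.4% G and C, against a median of 52.4% over all promoter entries. An E-box occurs in 6.02% of the 32851 promoter entries of the same length. The other motifs were the nuclear receptor site AGGTCA (14% of entries), the forkhead site GTAAACA (3.17%), the cAMP response element TGACGTCA (1.55%), direct repeat 1 (0.0335%), in which the nuclear receptor site occurs again after a spacer base, and the estrogen response element core (0.0639%). None of these 5 was found in the Slc16a1, Bdh1 or Bdh2 entries, which says only that these letters are not in these windows.

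Library depth was 23031880 to 45117528 reads and was not separated by treatment (p = 0.686, exact permutation test, two-sided). The 13 mitochondrially encoded genes took 22.4 to 34.3% of the reads in control mice and 20.8 to 37.8% in AF1 peptide-treated mice (exact permutation p = 0.4). AF1 peptide replicate 1 lay far from the other 7 mice in a principal component analysis (74.25 against -21.8 to 2.33 on the first axis), so the values of the members and the named pathway genes are also given without it. With limma, 990 of 15989 genes (6.19%) had an unadjusted p value under 0.05, the threshold used here for a call, and 484 (3.03%) were called lower and 506 higher. At a Benjamini-Hochberg adjusted p value under 0.05, limma called 0 genes, edgeR 0 and DESeq2 3. Scaling the libraries to equal totals lowered the share of higher calls from 51.1% to 14.4%. The hepatocyte markers were all expressed, and their summed counts were 2532743.8 to 2680076.8 in control and 1839910.2 to 2655514.1 in AF1 peptide-treated mice.

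The mean of the ketone body dehydrogenase gene Bdh1 fell by 25.8% and that of the carrier gene Slc16a1 fell by 30% in AF1 peptide-treated livers. Acat1, Bdh2 and Slc16a6 did not pass the test. Thus 2 of 5 members (40%) were called lower and 0 higher, against 3.03% of all tested genes called lower, and the median log2 fold change of the members was -0.25 against -0.01 for all tested genes. The members were chosen with earlier results of these data known, and Bdh1 and Slc16a1 varied together (Pearson's r = 0.873 over the 8 mice). The 40% therefore describes these 5 genes and is not a test. No member was called after adjustment over all genes, and 0 of 5 members separated the groups without overlap, against 3.9% of all tested genes. A two-sided exact permutation test of each gene, added after the data were seen, gave p = 0.0857 for Bdh1 and p = 0.0571 for Slc16a1. With 4 mice against 4, this test can fall under 0.05 only where the groups do not overlap. Since every member overlapped, it could not call any of them and adds nothing beyond the overlap. Without AF1 peptide replicate 1, Bdh1 and Slc16a1 were again called lower (2 of 5), against 5.48% of all genes.

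**Figure D1:**
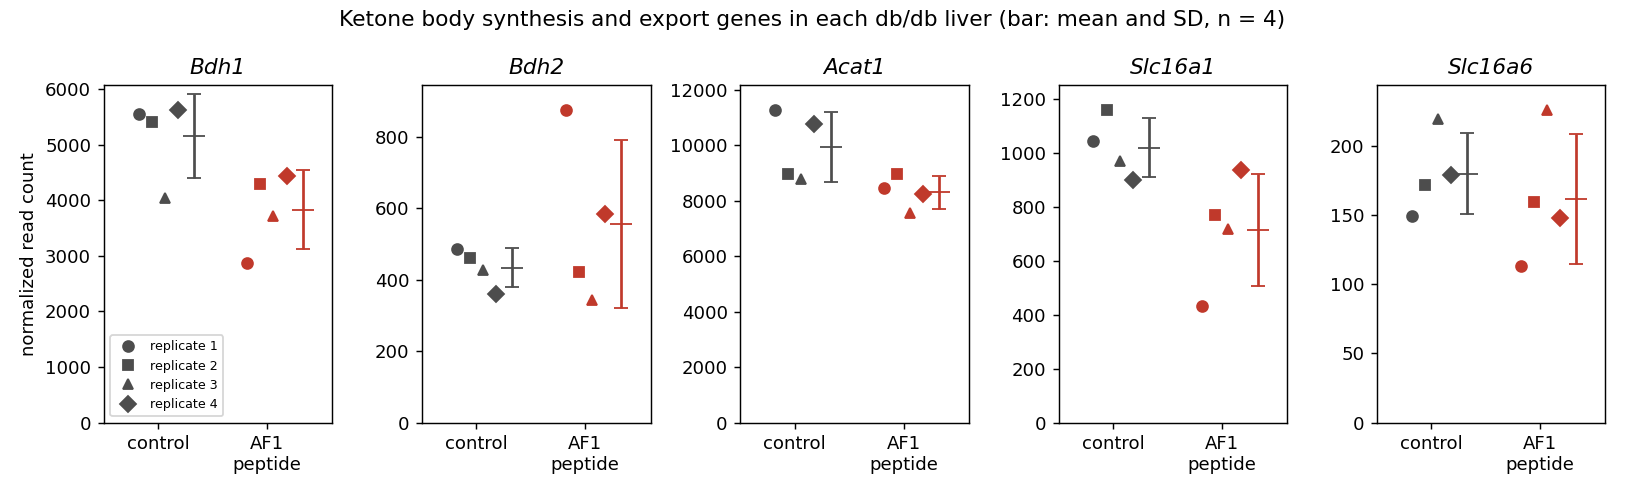
Normalized read count (vertical axis, from 0) of the 5 genes in each mouse, by group, with marker shapes for the replicate numbers and bars for the mean and SD (n = 4). AF1 peptide replicate 1 was the lowest of the 8 mice for Bdh1, Slc16a1 and Slc16a6 and the highest for Bdh2.

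Acat1 encodes the mitochondrial acetoacetyl-CoA thiolase, which opens ketone body synthesis and also serves the breakdown of isoleucine. Its normalized counts were 11268.3, 8956.4, 8791.4 and 10752.8 in control replicates 1 to 4 and 8458.2, 8951.5, 7545.8 and 8242.1 in AF1 peptide replicates 1 to 4. In 3 of the 4 AF1 peptide-treated mice the count lay below every control mouse, and AF1 peptide replicate 2 lay just below control replicate 2. The control mean was 9942.2 ± 1253.2 (SD, n = 4), and the mean with AF1 peptide was 8299.4 ± 583.5 (SD, n = 4). The log2 fold change was -0.25 (standard error 0.12, 95% interval -0.52 to 0.01), which missed the threshold in limma (adjusted p = 0.763). The exact permutation test gave p = 0.0571, and it could not pass because the groups overlapped. Without AF1 peptide replicate 1 the log2 fold change was -0.26. It was called in DESeq2 (-0.26), with equal totals (-0.35), and without control replicate 2 (-0.30) or control replicate 3 (-0.31). Of all members Acat1 varied least, with a ratio of 1.49 between the highest and the lowest mouse.

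Bdh1 encodes the mitochondrial enzyme that interconverts acetoacetate and β-hydroxybutyrate. Control replicates 1 to 4 had 5557.5, 5402.4, 4041.7 and 5623.5 normalized counts of Bdh1, and AF1 peptide replicates 1 to 4 had 2868.6, 4288.5, 3721.0 and 4429.1. Every AF1 peptide-treated mouse was below control replicates 1, 2 and 4, and the overlap came from control replicate 3, which had fewer counts than AF1 peptide replicates 2 and 4. The mean fell from 5156.3 ± 748.8 (SD, n = 4) to 3826.8 ± 708.4 (SD, n = 4). The log2 fold change was -0.44 (standard error 0.16, 95% interval -0.79 to -0.08), which was past the threshold in limma before adjustment (adjusted p = 0.763). Without AF1 peptide replicate 1 it was -0.31 and still called (adjusted p = 0.485). The call was lost without control replicate 1 (-0.40), without control replicate 4 (-0.39) and when the variance was not moderated across genes. A non-coding gene on the opposite strand, Gm15743, overlaps Bdh1 and had at most 35.4 normalized counts in any mouse, and the sources used here do not say whether the counting used strand.

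Bdh2 encodes a related short-chain dehydrogenase of the cytosol, which has been linked both to the use of β-hydroxybutyrate and to the making of an iron-binding siderophore. Its counts were 485.4, 461.9, 427 and 359.3 in control replicates 1 to 4 and 875.3, 421.9, 343.5 and 584.1 in AF1 peptide replicates 1 to 4. AF1 peptide replicates 1 and 4 lay above every control mouse, AF1 peptide replicate 3 lay below every control mouse, and AF1 peptide replicate 2 lay among them. The log2 fold change of 0.28 (standard error 0.25, 95% interval -0.28 to 0.83) did not pass the test (limma, adjusted p = 0.827). It was 0.03 without AF1 peptide replicate 1. The coefficient of variation in AF1 peptide-treated mice was 42.3%, the widest of the 5 genes. In control mice it was 12.7%, below that of Slc16a6 (16.3%) and Bdh1 (14.5%). The SD of the AF1 peptide-treated mice was 235.1, and 122.7 without AF1 peptide replicate 1.

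The balance of the dehydrogenase genes was different in AF1 peptide replicate 1. The level of Bdh2 per kilobase of exon divided by that of Bdh1 was 0.0584 to 0.0966 in control mice, 0.0845 to 0.121 in AF1 peptide replicates 2 to 4 and 0.279 in AF1 peptide replicate 1. In that mouse Bdh1 was thus lowest and Bdh2 highest of all 8 livers.

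Slc16a1 encodes MCT1, the proton-linked carrier for lactate, pyruvate and ketone bodies, which reaches the cell surface with the partner protein encoded by Bsg. Control replicates 1 to 4 had 1045.7, 1159.1, 970.7 and 901.1 normalized counts of Slc16a1. The counts of AF1 peptide replicates 1 to 4 were 433, 768.9, 716.7 and 934.9. AF1 peptide replicate 4 was within the control range, just above control replicate 4, and the other 3 of its group lay under the whole control group. The mean fell from 1019.2 ± 110.4 (SD, n = 4) to 713.4 ± 208.8 (SD, n = 4). The log2 fold change was -0.56 (standard error 0.20, 95% interval -1.01 to -0.11), which was past the threshold in limma before adjustment (adjusted p = 0.763). Without AF1 peptide replicate 1 the decrease was smaller but still called, at -0.34 (standard error 0.12, adjusted p = 0.473). The call was lost without control replicate 2 (-0.50) and with the unmoderated variance. The partner gene Bsg was not called (-0.10, and -0.09 without AF1 peptide replicate 1). The level of Slc16a1 per kilobase divided by that of Bsg was 0.0298 to 0.0328 in control and 0.0143 to 0.0267 in AF1 peptide-treated mice. Divided by that of Slc16a6 it was 4.88 to 7.73 in control and 3.5 to 6.98 in AF1 peptide-treated mice, which overlap. These ratios are descriptions, and how often ratios of other genes separate the groups was not tested.

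Slc16a6 encodes MCT7, a carrier first tied to the export of β-hydroxybutyrate from the liver in zebrafish. It was the member with the fewest reads, 87 to 274 per library, so that counting alone gave an error of 10.7% in the library with the fewest. Normalized counts were 149.2, 171.3, 219.4 and 178.4 in control replicates 1 to 4 and 112.9, 158.9, 225.7 and 147.9 in AF1 peptide replicates 1 to 4. The groups overlapped, with AF1 peptide replicate 3 above every control mouse and AF1 peptide replicates 1 and 4 below them. The log2 fold change was -0.18 (standard error 0.21, 95% interval -0.64 to 0.28, adjusted p = 0.857 in limma), and without AF1 peptide replicate 1 it was -0.03. The genes Amz2 and Arsg lie across Slc16a6 on the opposite strand, and 0.751% of its 50-base words occur in transcripts of other genes. The other 4 members shared 0% of theirs.

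In levels per kilobase of exon, which allow genes to be compared, Acat1 was the most abundant member in control livers at 2645.6 ± 333.5 (SD, n = 4), followed by Bdh1 at 1326.2 ± 192.6 (SD, n = 4). Slc16a1 stood at 230.3 ± 24.9 (SD, n = 4), Bdh2 at 102 ± 12.9 (SD, n = 4) and Slc16a6 at 36.8 ± 6.01 (SD, n = 4). The ranges of neighbours in this order did not overlap among control mice. In AF1 peptide-treated mice they overlapped for Slc16a1 (97.8 to 211.2) and Bdh2 (80.8 to 206). Oxct1 was below all members at 20.4 ± 3.67 (SD, n = 4). The order of the members was the same with the longest transcript as the length.

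**Figure D2:**
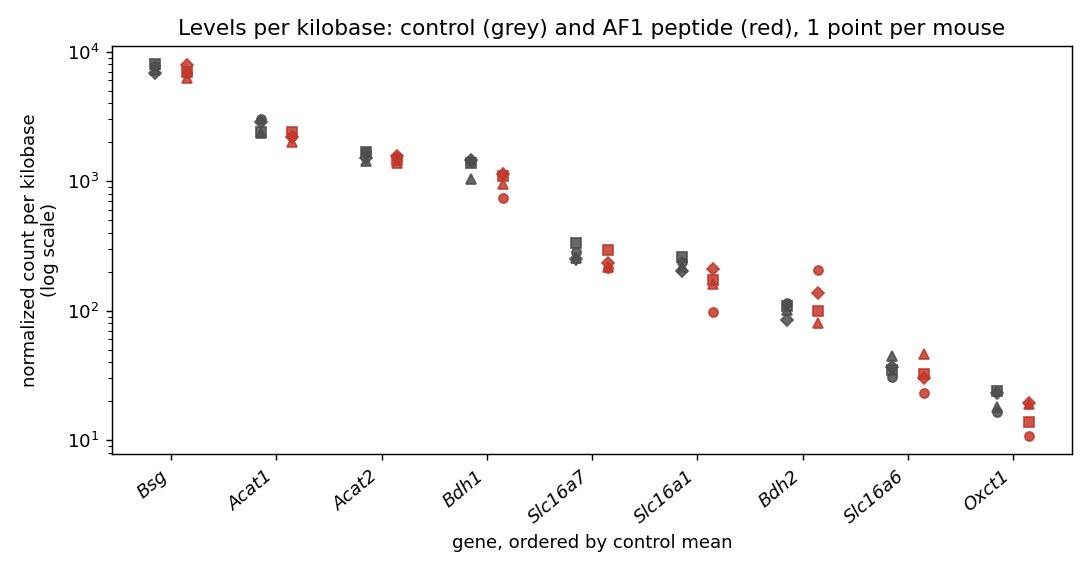
Normalized count per kilobase of exon (log scale) for the 5 members and 4 further genes, 1 point per mouse, with control mice in grey and AF1 peptide-treated mice in red. Bsg lies highest and Oxct1 lowest, and the red points of Slc16a1 reach down to 97.8.

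The cytosolic thiolase gene Acat2 and its relative Acat3 were not called, with log2 fold changes of -0.09 and 0.02, and of -0.11 and -0.10 without AF1 peptide replicate 1. Both are named although they fell outside the rule for named genes.

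**Figure D3:**
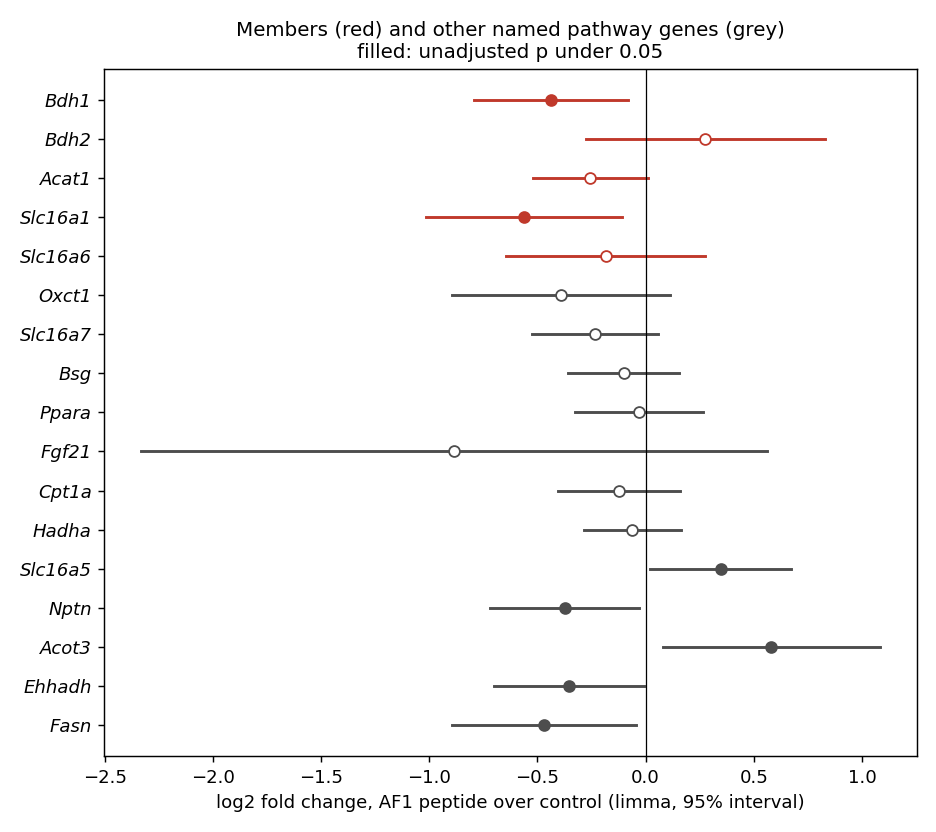
Log2 fold change of AF1 peptide over control (horizontal axis, limma, with the 95% interval) for the 5 members in red and 12 other named pathway genes in grey, filled where a gene was called. Bdh1 (-0.44) and Slc16a1 (-0.56) lie below 0 with their intervals, and Fgf21 has the widest interval.

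Over the 10 lists of genes around ketone body metabolism, 3 of 83 tested genes were called lower and 2 higher (6.02%, against 6.19% of all genes). Each of these calls had an adjusted p value of 0.763 in limma. A negative log2 fold change was seen in 53 of the 83, against 51.8% of all tested genes. Without AF1 peptide replicate 1, 9 of 83 were called lower and 3 higher, against 5.48% and 4.58% of all genes, with adjusted p values of 0.452 to 0.497. Of the genes that use ketone bodies, 0 of 2 tested were called, and Oxct1 had a log2 fold change of -0.39, which was -0.23 without AF1 peptide replicate 1. Among the other SLC16 carriers, 1 of 9 tested was higher and 0 lower. That gene was Slc16a5, an SLC16 family gene with no settled role in ketone export, which had 1474.2 to 1839.0 counts in control mice and rose to a range of 1824.6 to 2913.4 (log2 fold change 0.35). It was highest in AF1 peptide replicate 1, and without that mouse the value was 0.20 and not called. Slc16a7, which encodes the high-affinity carrier MCT2, had a log2 fold change of -0.23 (-0.18 without that mouse) and was not called. Of the carrier partners 1 of 3 was lower, Nptn, an immunoglobulin-family protein related to that of Bsg (log2 fold change -0.37, and -0.38 without AF1 peptide replicate 1).

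Genes of fatty acid oxidation, which feed the pathway with acetyl-CoA, were not called in either direction (0 of 17 lower and 0 higher in limma before adjustment). Of these, 15 had a negative log2 fold change, as did 51.8% of all tested genes. The median of the list was -0.13 (-0.11 without AF1 peptide replicate 1). Cpt1a, the carnitine palmitoyltransferase at the entry of mitochondria, had -0.12, and Hadha, a subunit of the trifunctional protein, had -0.06, and without that mouse the values were -0.11 and -0.0024. Acads, Echs1 and Etfdh, 3 oxidation genes named after their values were seen, were called lower once AF1 peptide replicate 1 was left out (-0.55, -0.37 and -0.53). Of the genes that control ketogenesis 0 of 10 were called, with -0.03 for Ppara, the fatty acid-sensing nuclear receptor, and -0.88 for the fasting hormone gene Fgf21. Leaving out AF1 peptide replicate 1 brought Fgf21 to -0.11 and Ppara to 0.084, and turned the median of the list from -0.08 to 0.08. Foxa2 (0.32) was then called higher and Mlycd (-0.50) lower, both named after their values were seen. Among 14 tested PPARα targets, Acot3, a peroxisomal thioesterase, rose (log2 fold change 0.58) and Ehhadh, the peroxisomal bifunctional enzyme, fell (-0.35), with 0.62 and -0.38 when AF1 peptide replicate 1 was left out. In that setting Vnn1 was also called higher (0.30), and the median of the list turned from -0.12 to 0.13. Of 10 genes of branched-chain amino acid breakdown, which for isoleucine ends at the enzyme of Acat1, 0 were called with or without that mouse, and the median turned from 0.12 to -0.04.

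The calls of these pathway genes did not hold in every fit with 1 mouse left out. A lost call did not always mean a smaller change: Slc16a5 was 0.35 with all mice and 0.37 without control replicate 3. Slc16a5 was not called without control replicate 1, 2 or 3 or AF1 peptide replicate 1 or 4 (0.20 to 0.37), and Nptn without control replicate 2 or 4 or AF1 peptide replicate 2 or 3 (-0.37 to -0.28). Acot3 was not called without control replicate 1 or 2 or AF1 peptide replicate 3 (0.41 to 0.49), and Ehhadh without control replicate 1 or 4 or AF1 peptide replicate 2 or 3 (-0.34 to -0.26).

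**Figure D4:**
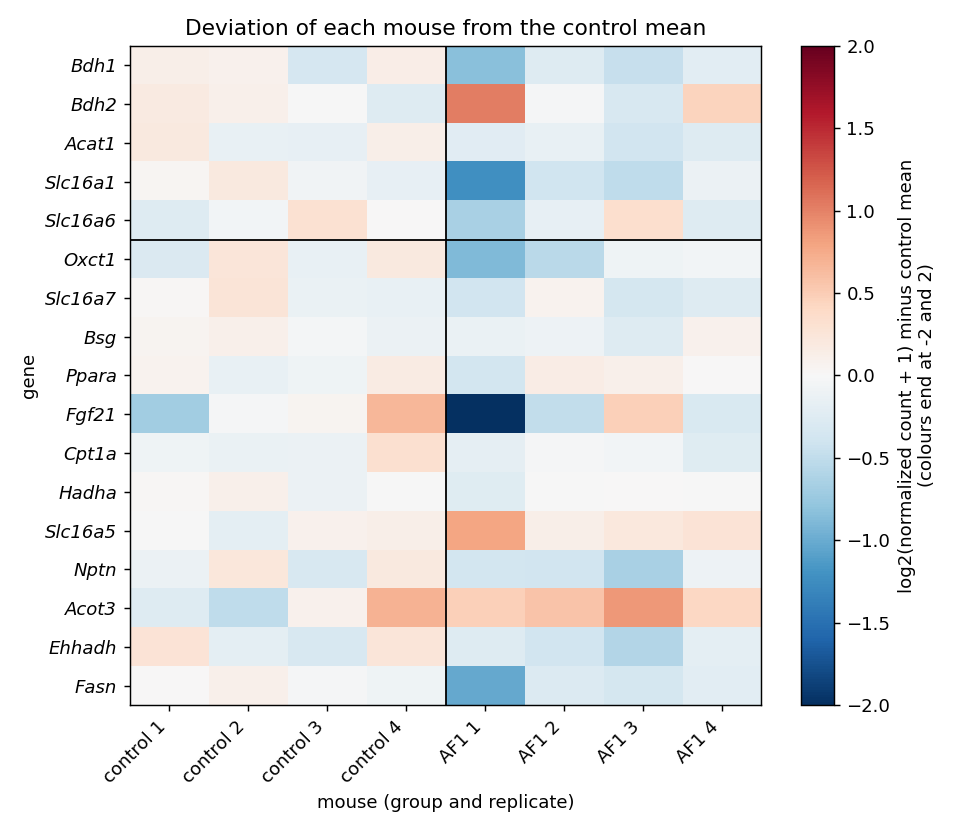
Difference of each mouse's log2(normalized count + 1) from the control mean (colour, blue lower and red higher, ending at -2 and 2) for the 5 members above the line and 12 named pathway genes below it. The column of AF1 peptide replicate 1 holds the deepest colours, among them -1.23 for Slc16a1, 1.02 for Bdh2 and -3.21 for Fgf21.

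Genes other than the members also stood out in AF1 peptide replicate 1, where Acat1 stayed within the range of the other treated mice. Summed counts of 9 feeding-raised genes, most of them lipogenic, were 262722.5 in this mouse, 595340.5 to 636893.5 in the other treated mice and 487125.1 to 798336.2 in control mice. The sum of 10 fasting-raised genes was 211990.8 in it, against 43602.7 to 77998.9 and 60505.6 to 101889.4. The sums weigh abundant genes most: in this mouse Scd1 had 183948.1 of the first, and Pck1 77425.0 and Tat 68707.4 of the second. Srebf1, a feeding-raised gene, did not follow its sum and was highest in this mouse (8937.9, against 4910.0 to 8144.3 in control mice). Fgf21 stood at 81.2 counts in this mouse and at 469.7 to 1209.3 in control mice. In the 9 feeding-raised genes 1 was called lower, Fasn, the fatty acid synthase gene (-0.47, and -0.28 without AF1 peptide replicate 1), and its call was lost without control replicate 1, 2 or 3 (-0.47 to -0.44). Of the 10 fasting-raised genes 0 were called, but without AF1 peptide replicate 1 G6pc (-0.63) and Tat (-0.74) were called lower and the median turned from 0.15 to -0.19. G6pc and Tat were named after their values were seen. The part of feeding state in the results of the members was not tested.

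Markers of other cells were also read, since fewer cells of a type and less RNA per cell cannot be told apart in a piece of liver. The sum of 8 Kupffer cell and macrophage markers was 2544.8 in AF1 peptide replicate 1, 6288.5 to 6638.8 in the other treated mice and 5536.1 to 6968.4 in control mice. Of the 8 genes 1, Adgre1, was called lower (-0.66, and -0.45 and not called without AF1 peptide replicate 1). The median log2 fold change of this list turned from -0.24 to 0.05 without that mouse. Of the stellate cell markers 1 of 7, Dcn, was called lower (-0.42, and -0.43 without that mouse). The stellate list did not fall as a set. Only 2 of its 7 genes had a negative log2 fold change, and its median was 0.04 (0.19 without that mouse). Adgre1 and Dcn, each with an adjusted p value of 0.763 in limma, were named after their values were seen. Of the endothelial and cholangiocyte markers 0 of 7 and 0 of 5 were called. Red blood cell markers summed to 34178.7 to 123472.5 counts in control and 27127.2 to 51964.9 in AF1 peptide-treated mice, with 0 of 6 tested genes called. The fat marker genes of the table summed to at most 103.8 counts and the muscle ones to at most 9.73. The part of these cells in the results of the members was not tested.

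The members did not vary together as a set. Over the 8 mice, Pearson's r between Bdh1 and Slc16a1 was 0.873 (Spearman's rho 0.643), and 0.687 without AF1 peptide replicate 1. Between Bdh1 and Acat1 it was 0.705 (rho 0.786) and 0.844. Bdh2 and Slc16a6 went in opposite directions, with r of -0.864 (rho -0.881) and -0.711. Between Slc16a1 and Slc16a6 r turned from 0.476 to -0.359 when AF1 peptide replicate 1 was left out. These are descriptions over 4 control and 4 AF1 peptide-treated mice, so the difference between the groups is part of each r.

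Among 12443 genes with a mean count of at least 50, the genes most like each member over the 8 mice were picked by Pearson's r. Slc16a1 was nearest to Fasn (r = 0.984, 0.945 without AF1 peptide replicate 1), Ces2g (0.978 and 0.912) and Insig2 (0.974 and 0.934). Bdh1 was nearest to Sar1b (0.968 and 0.961), Aldh3b3 (0.967 and 0.964) and Acsl5 (0.959 and 0.906). Acat1 was nearest to Pank2 (0.985 and 0.995), Lamtor5 (0.945 and 0.954) and Mbtps2 (0.933 and 0.971). For Bdh2 the genes were Mettl23 (0.990 and 0.972), Rars (0.964 and 0.880) and Gsta2 (0.961 and 0.917), and for Slc16a6 they were Myo9b (0.991 and 0.989), Pld2 (0.976 and 0.955) and Pdgfa (0.972 and 0.950). With so many candidates and 8 mice, high values arise readily. Without the 2 mice farthest from the median of the member, r was lowest for Acat1 with Lamtor5 (0.725) and highest for Slc16a6 with Myo9b (0.984).

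**Figure D5:**
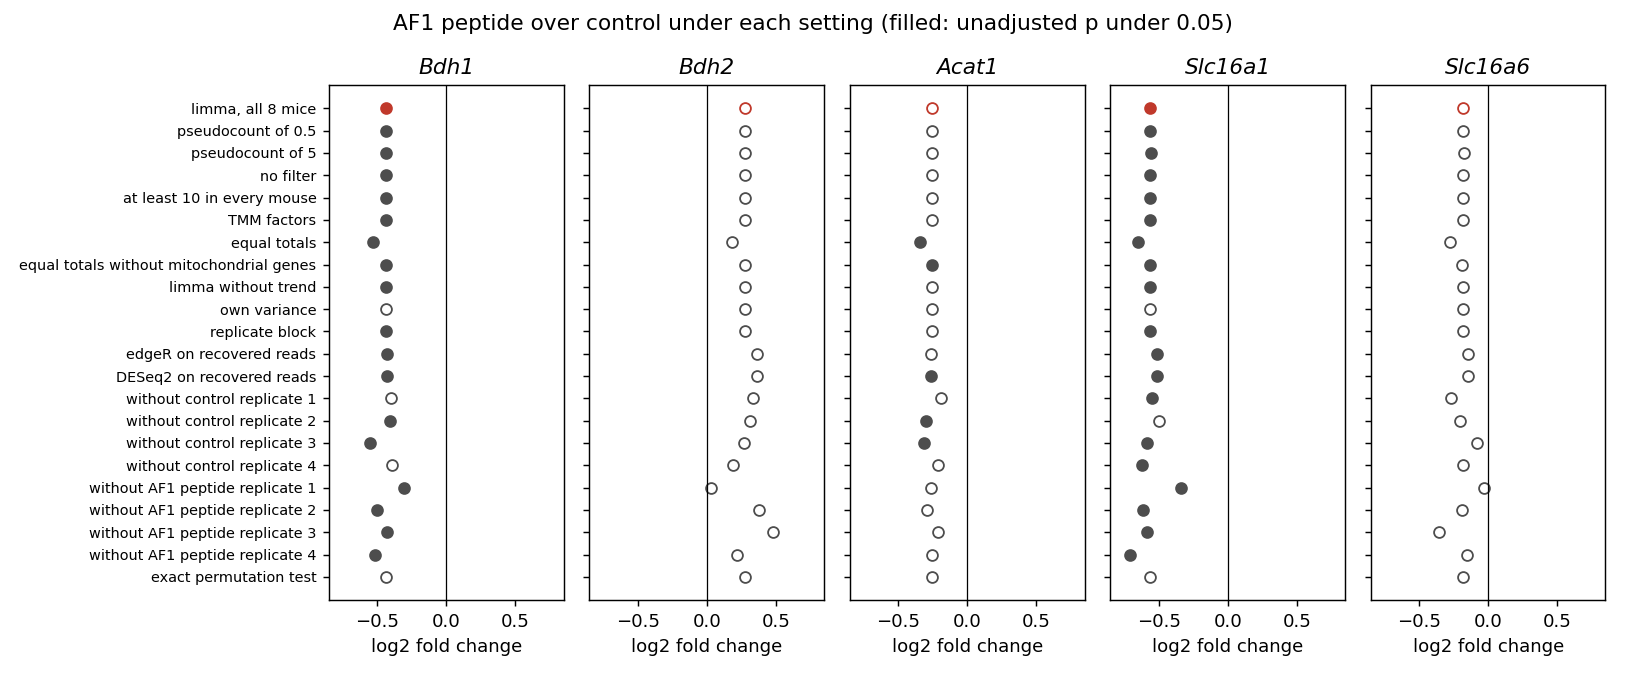
Log2 fold change of AF1 peptide over control (horizontal axis) for each member under each setting of the analysis (rows), filled where the unadjusted p value was under 0.05, with the reported fit in red. The points of Bdh1 (-0.55 to -0.31) and Slc16a1 (-0.71 to -0.34) stay left of 0, and those of Bdh2 and Slc16a6 come nearest to 0 without AF1 peptide replicate 1.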

How the data were processed

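Frozen livers were extracted with TRIzol, and stranded mRNA libraries were built. Trimming (TrimGalore 0.6.7), alignment (HISAT2) to the mouse genome (mm39 in the submitters' processing notes), sorting (SAMtools 1.17) and counting (GenomicAlignments) were done by the authors. The table the authors deposited holds a signal per gene and mouse, the normalized read count, in which whole reads had been divided by 1 factor for each library. Of 172256 values, 100% came out whole within 0.001, and the reads were recovered. The annotation and the use of strand are not given in the sources used here. Columns were matched to mice by the sample titles.

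Log2(normalized count + 1) was compared with limma 3.58.1 (R 4.3.3, intensity trend) over all genes averaging 10 normalized counts or more, with Benjamini-Hochberg adjustment over these genes. On this scale the change of low genes is understated. The call was an unadjusted p value under 0.05, the threshold stated in the study's methods. Each member was also tested by a two-sided exact permutation test, which was added after the data were seen. With 4 mice against 4 this test can fall under 0.05 only where the groups do not overlap. edgeR 4.0.16 and DESeq2 1.42.0 were run on the recovered reads. The fit was tested on simulated counts. Replicates of a group differed by 14.63 to 311.7 in chi-square per degree of freedom, so none was counted as a duplicate. Exon lengths, overlaps and 50-base words came from GENCODE M21 (GRCm38), and promoters from RefSeq. The members, the gene lists and the motifs were chosen with earlier results of these data known. Named were the members, 7 fixed pathway genes, each gene of the pathway lists with a call, and the 3 genes most like each member. Other genes were named after their values were seen, as the text says. Depth and mitochondrial share were compared by exact permutation tests, for which 4 mice against 4 allow no p value under 0.0286. Some listed genes are not reported here and were left out of the lists and their counts.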

Additional observations from a re-analysis of the deposited data

Results flagged for a closer look

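Dixon's test at the 95% level asked whether the highest or lowest mouse of a group was set off from the other 3, as its distance to the next mouse over the whole range. This was asked of the members, the other named pathway genes, the read total and the mitochondrial share, 38 groups in all, and 4 mice stood apart where chance gives about 1.9. Control replicate 3 was the lowest control mouse for Bdh1 (distance over range 0.860), with 4041.7 normalized counts against 5402.4 to 5623.5 in the other control mice. Control replicate 4 was the highest control mouse for Cpt1a (0.929). AF1 peptide replicate 1 was the lowest treated mouse for Hadha (0.915). Control replicate 1 had the most reads among control mice (0.857).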

How the results depend on the processing

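The direction of all 5 members held under all alternatives run. With the gene's own variance the values of Bdh1 (-0.44) and Slc16a1 (-0.56) were no longer called. The exact permutation test called neither, but it cannot call a gene whose groups overlap. Acat1 was called with equal totals (-0.35), with equal totals of the genes that are not mitochondrially encoded (-0.26) and in DESeq2 (-0.26). With 1 mouse left out in turn, Bdh1 ranged from -0.55 to -0.31, Slc16a1 from -0.71 to -0.34 and Acat1 from -0.31 to -0.19, with calls gained or lost in each. Ppara ranged from -0.088 to 0.084 and turned positive without control replicate 4 and without AF1 peptide replicate 1. The number of genes called higher was 129 with equal totals, 286 when a 1.3-fold difference was also asked for, and 285 to 732 with 1 mouse left out, and the number lower was 769, 304 and 255 to 876. Over all genes, the median log2 fold change went from -0.01 to -0.10 with equal totals. With equal totals of the genes that are not mitochondrially encoded the median was -0.01, and 438 genes were called higher and 467 lower. The cause of these changes was not tested.

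Mice with the same replicate number correlated in their deviations from the group means at 0.235, 0.024, 0.216 and -0.064, so the numbers were not taken to pair the mice, and not every mouse correlated best with its own number. With the replicate number as a block, 597 genes were higher and 647 lower, and the calls of the members were unchanged. Depth limits Slc16a6 most.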

Other observations

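Other carrier genes of the SLC16 family set AF1 peptide replicate 1 apart, and they are named here after their values were seen. Slc16a11 had 83.05 normalized counts in this mouse, against 610.7 to 778.1 in the other treated mice and 581 to 769.6 in control mice. Slc16a13 had 19.6, against 105.9 to 139.2 and 72.86 to 158.5. Slc16a10, which encodes an aromatic amino acid carrier, was instead highest in it, at 1895.3 against 640.1 to 986.3 and 655.1 to 937. None of the 3 was called between the groups, with log2 fold changes of -0.71, -0.40 and 0.39 in limma. Without AF1 peptide replicate 1 these were 0.04, 0.24 and 0.07, so that Slc16a11 and Slc16a13 turned in sign.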
